A study of Caenorhabditis elegans with 4 samples.

Results

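The core histone cluster genes of Caenorhabditis elegans are the his genes for histones H2A, H2B, H3 and H4 that lie close together in small groups. Their 60 members were taken by gene name from a table of 17096 genes, and where a gene has several transcripts, the best-counted of them stands for it. The table holds 4 libraries of whole adult worms of the wild-type strain N2, with 1 library a group: worms fed Bacillus subtilis PY79 and collected at day 13 or day 4 of adulthood, and worms fed Escherichia coli OP50 and collected at day 13 or day 4. PY79 at day 13, PY79 at day 4, OP50 at day 13 and OP50 at day 4 therefore have no replicates, and no difference between them can be set against a replicate error. RNA was extracted with TRIzol, enriched for poly(A) RNA and sequenced from the 3′ end (3SEQ) in pooled barcoded libraries. The study describes transfer of its aged worms to plates with FUDR, which blocks DNA synthesis, and filtering of eggs and progeny over nylon mesh. The comparisons asked how these genes differed between the diets and between the ages.

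Histones H2A, H2B, H3 and H4 form the protein core of the nucleosome, around which DNA is wrapped, and dividing cells need large amounts of them while DNA is copied. In animals, most messenger RNAs of such replication-dependent histone genes end in a stem-loop, which the stem-loop binding protein (CDL-1 in C. elegans) recognises, and carry no poly(A) tail. A library made from poly(A) RNA therefore reads the polyadenylated part of these transcripts and whatever else was carried through the enrichment. The somatic cells of an adult worm no longer divide, whereas germ cells and embryos do. In RNA of whole worms, fewer cells of a type and less RNA per cell cannot be told apart.

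The chosen transcripts summed to 4469802 reads in PY79 at day 13 and 4838114 in PY79 at day 4, against 28552961 in OP50 at day 13 and 28650595 in OP50 at day 4. The OP50 library was thus 6.39 times as deep at day 13 and 5.92 times as deep at day 4. Levels are given as CPM, the usual counts-per-million scale, here after trimmed-mean (TMM) scaling, and a count of 3 reads was taken as the floor of detection, 0.513, 0.556, 0.141 and 0.114 CPM in PY79 at day 13, PY79 at day 4, OP50 at day 13 and OP50 at day 4. Reads were not divided by transcript length, so levels of different genes are not compared. The words higher and lower are kept for ratios of scaled reads that reached 2-fold and whose exact 95% interval excluded 1. Such an interval covers counting error only, PCR reads are not independent molecules, and the call compares these libraries, not the conditions. The 9032 genes that reached 10 reads in some library were tested.

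The members drew few reads. They held 1168 reads in PY79 at day 13 (0.0261% of the library) and 781 in PY79 at day 4 (0.0161%), against 26109 in OP50 at day 13 (0.0914%) and 18948 in OP50 at day 4 (0.0661%). Of the 60 members, 31 had 0 reads in every library, 9 had 1 to 9 reads in all, and 20 reached 10 reads in a library and were tested. Only 9 reached 10 reads in every library. By the coding length in the Ensembl annotation of assembly WBcel235, 14 members were H2A genes, 16 H2B, 15 H3 and 12 H4, and 3 had another length. Reads were found for 5 H2A, 6 H2B, 10 H3 and 6 H4 genes.

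Most members without reads share their symbol with another gene. Ensembl gives 34 members a symbol that 2 or more genes share, and 30 of these had 0 reads; the 34 together held 17 reads and none of them was tested. The other 26 members have a symbol of their own, held 46989 reads and included all 20 tested genes, and 1 of them had 0 reads. A gene that is not expressed and a gene whose reads could not be placed at a single copy cannot be told apart here. The groups of genes on the cosmids F07B7, with 6 members, F35H10, with 2, and H02I12, with 2, had 0 reads in all libraries. The 10 genes on ZK131 had 2 reads, those on F08G2 had 2, those on K06C4 had 1 and those on F54E12 had 3. By chromosome, the 13 members on II held 4 reads in all and none was tested, the 22 on IV held 13677, the 24 on V held 33142, and his-40, the only member on X, held 183. The 9 members with few reads were his-25, his-42, his-47, his-45, his-58, his-7, his-5, his-39 and his-17, and the highest count among them was 9, for his-5 in OP50 at day 13.

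Among the H2A genes, whose product pairs with H2B, 3 were tested. his-35 (C50F4.13) had 137 reads in PY79 at day 13 and 108 in PY79 at day 4, against 1903 in OP50 at day 13 and 2618 in OP50 at day 4. his-61 (F55G1.10) had 48 and 34 reads in PY79 at day 13 and day 4, against 612 and 529 in OP50 at day 13 and day 4. Both were lower on PY79 than on OP50 at each age, and neither was called between the ages. his-3 (T10C6.12) had 4 and 0 reads in PY79 at day 13 and day 4, against 136 and 36 in OP50 at day 13 and day 4, so it was near the floor on PY79 and clearly counted on OP50.

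The H2B genes held more reads than any other class in each library. his-41 (C50F4.5) had 125 reads in PY79 at day 13 and 155 in PY79 at day 4, against 7703 in OP50 at day 13 and 5180 in OP50 at day 4. It took 28.7% of the H2B reads in PY79 at day 13 and 51.7% in PY79 at day 4, against 72.2% in OP50 at day 13 and 70.2% in OP50 at day 4. The neighbouring gene C50F4.6 is a member by name, but the annotation gives it no histone symbol, and its first exon overlaps the 3′ end of his-41 on the same strand. Its 110, 149, 7667 and 5144 reads in PY79 at day 13, PY79 at day 4, OP50 at day 13 and OP50 at day 4 were 15, 6, 36 and 36 fewer than those of his-41 in the same libraries. The reads of the 2 genes cannot be told apart, so C50F4.6 belongs to no class below and its values are not a second measurement.

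Of the other H2B genes, his-62 (F55G1.3) had 253 and 128 reads in PY79 at day 13 and day 4, against 2197 and 1914 in OP50 at day 13 and day 4. his-48 (B0035.8) had 58 and 14 reads in PY79 at day 13 and day 4, against 695 and 248 in OP50 at day 13 and day 4. In both genes the day 13 library had the higher CPM on each diet. his-4 (T10C6.11) had 0 reads in both PY79 libraries, against 79 in OP50 at day 13 and 28 in OP50 at day 4. his-8 (F45F2.12) had 0 reads in both PY79 libraries, against 2 in OP50 at day 13 and 11 in OP50 at day 4.

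Histone H3, which with H4 forms the tetramer at the centre of the nucleosome, was represented by 6 tested genes. his-59 (F55G1.2) had 122 and 45 reads in PY79 at day 13 and day 4, against 1705 and 836 in OP50 at day 13 and day 4. his-32 (F17E9.10) had 12 and 3 reads in PY79 at day 13 and day 4, against 304 and 214 in OP50 at day 13 and day 4. his-63 (F22B3.2) had 6 and 1 reads in PY79 at day 13 and day 4, against 186 and 48 in OP50 at day 13 and day 4. In these 3 genes both OP50 libraries stood above both PY79 libraries in CPM, and day 13 stood above day 4 on each diet. his-40 (K03A1.1) had 7 and 9 reads in PY79 at day 13 and day 4, against 85 and 82 in OP50 at day 13 and day 4. his-2 (T10C6.13) had 0 and 1 reads in PY79 at day 13 and day 4, against 73 and 13 in OP50 at day 13 and day 4, and his-6 (F45F2.13) had 0 in both PY79 libraries, against 37 and 12 in OP50 at day 13 and day 4. For the last pair most reads came from OP50 at day 13, and all but 1 of the others from OP50 at day 4.

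The H4 genes included a member, his-37, that was called neither way between the diets. his-37 (C50F4.7) had 159 and 115 reads in PY79 at day 13 and day 4, against 586 and 711 in OP50 at day 13 and day 4, or 27.2, 21.3, 27.6 and 26.9 CPM in PY79 at day 13, PY79 at day 4, OP50 at day 13 and OP50 at day 4. his-60 (F55G1.11) had 87 and 13 reads in PY79 at day 13 and day 4, against 1274 and 1198 in OP50 at day 13 and day 4, so that PY79 at day 4 stood apart from the other libraries. his-64 (F22B3.1) had 31 and 0 reads in PY79 at day 13 and day 4, against 701 and 70 in OP50 at day 13 and day 4. The counts of his-64 were concentrated at day 13 on either diet. his-1 (T10C6.14) had 4 and 0 reads in PY79 at day 13 and day 4, against 108 and 15 in OP50 at day 13 and day 4. his-31 (F17E9.12) had 2 and 0 reads in PY79 at day 13 and day 4, against 43 and 31 in OP50 at day 13 and day 4.

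**Figure D1:**
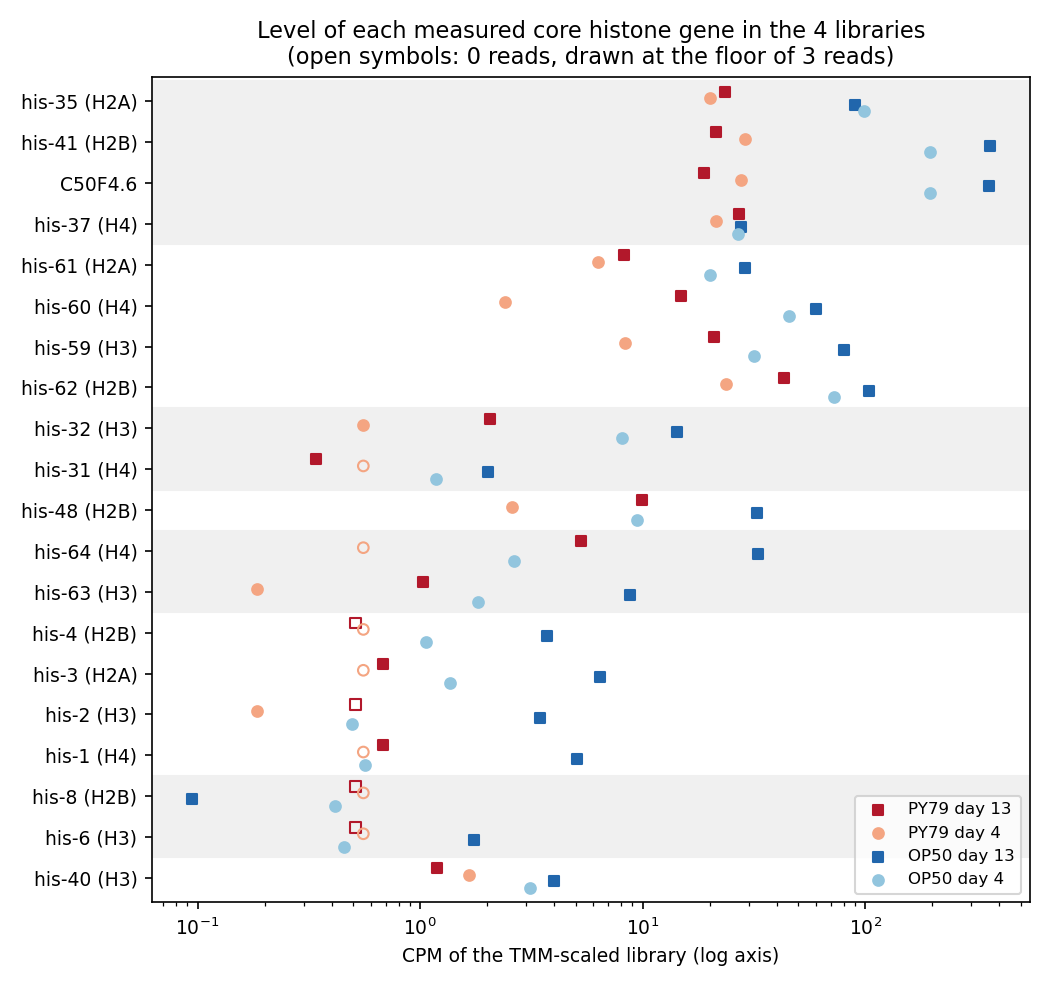
Each row is 1 of the 20 core histone genes with at least 10 reads in a library, grouped by their place in the genome; the x axis is CPM of the TMM-scaled library on a log scale, symbols stand for the 4 libraries, and open symbols mark 0 reads, drawn at the floor of 3 reads. The OP50 symbols lie to the right of the PY79 symbols in most genes, whereas those of his-37 lie together between 21.3 and 27.6 CPM.

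Since copies of a class are near-identical, the reads were also summed over each class. The H2A sum was 32.5 CPM in PY79 at day 13 and 26.7 CPM in PY79 at day 4, against 125 CPM in OP50 at day 13 and 121 CPM in OP50 at day 4. The H2B sum was 74.5 and 55.6 CPM in PY79 at day 13 and day 4, against 503 and 279 CPM in OP50 at day 13 and day 4. H2B thus had the widest gap between the ages on OP50 in CPM. Without his-41 the H2B sum on OP50 was 140 CPM at day 13 and 83.3 CPM at day 4, a smaller gap than that of H3. The H3 sum was 25.5 and 11.1 CPM in PY79 at day 13 and day 4, against 113 and 45.8 CPM in OP50 at day 13 and day 4. The H4 sum was 48.4 and 23.7 CPM in PY79 at day 13 and day 4, against 128 and 76.6 CPM in OP50 at day 13 and day 4. In every class both OP50 libraries stood above both PY79 libraries, and the point value was higher at day 13 than at day 4 on each diet, except that the H2A ratio of day 13 to day 4 on OP50 turned to 0.835 with total-read scaling and to 0.992 with all transcripts of a gene summed. All members without C50F4.6 summed to 181 and 117 CPM in PY79 at day 13 and day 4, against 870 and 522 CPM in OP50 at day 13 and day 4.

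**Figure D2:**
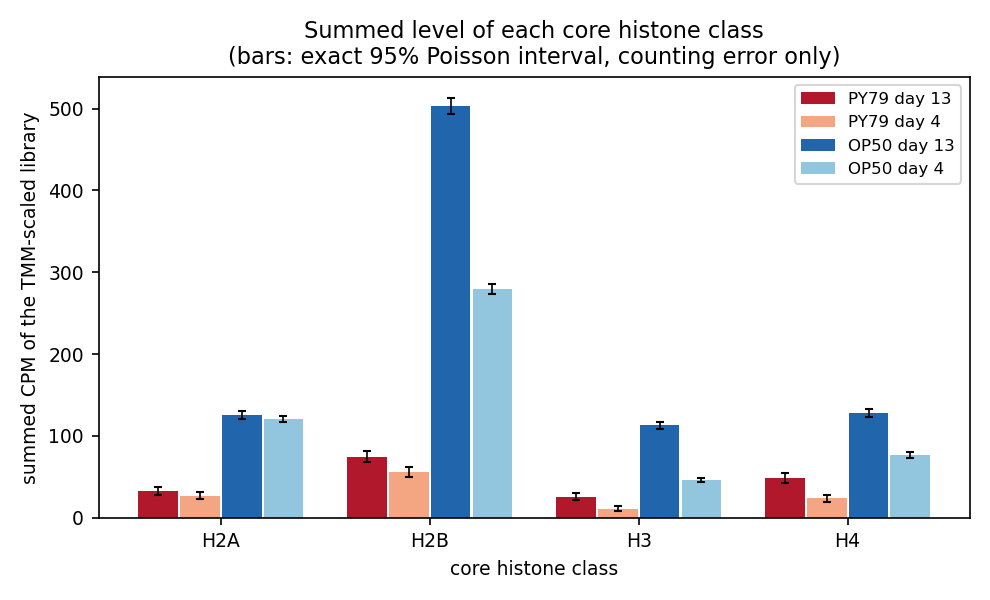
Bars give the summed CPM of the TMM-scaled library (y axis, linear from 0) of the H2A, H2B, H3 and H4 genes in the 4 libraries, and error bars are exact 95% Poisson intervals, which cover counting error only. The OP50 bars are taller than the PY79 bars in every class, and the H2B bars reach 503 CPM in OP50 at day 13 and 279 CPM in OP50 at day 4.

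Core histone genes were lower in the PY79 libraries than in the OP50 libraries at both ages. At day 4, 13 of the 20 tested members were lower, beside 23.4% of all tested genes, and 0 were higher, beside 25.4%. At day 13, 18 of the 20 were lower, beside 22.3% of all tested genes, and 0 were higher, beside 22.5%. The 13 genes lower at day 4 were all lower at day 13, in comparisons that share no library. All 20 tested genes reached the 10 reads in OP50 at day 4, but 11 of them did not in every PY79 library. Of these 11, only his-64 and his-32 reached it in PY79 at day 13. The others passed only through the deeper OP50 libraries, where they are high. These counts and medians therefore describe the genes that passed and are no support for a difference. Of the 9 members with at least 10 reads in every library, 8 were lower at day 4 and 8 at day 13, in each case all but his-37. There is no share over all such genes to set beside these counts. The median log2 ratio of the 9 was -1.92 at day 4, beside 0.27 over all such genes, and -1.93 at day 13, beside 0.34. Since C50F4.6 repeats the reads of his-41, the counts without it are 12 of 19 at day 4 and 17 of 19 at day 13, and 7 of 8 at each age with at least 10 reads in every library. With total-read scaling 12 members were lower at each age, and his-62, his-61, his-48, his-31, his-6 and his-40 lost their call at day 13. The median log2 ratio of the members was -2.87 at day 4, beside -0.09 over all tested genes, and -2.48 at day 13, beside 0.01. With genes that had 0 reads set at the floor, the medians of the members were -1.87 and -2.17. All class sums were lower on PY79, by 4.52-fold at day 4 (95% interval 3.83 to 5.38) and 3.85-fold at day 13 (3.32 to 4.48) for H2A, and by 5.03-fold (4.48 to 5.66) and 6.75-fold (6.14 to 7.45) for H2B. The H3 sum was 4.12-fold (3.18 to 5.43) and 4.43-fold (3.75 to 5.26) lower at day 4 and day 13, and the H4 sum 3.23-fold (2.70 to 3.90) and 2.65-fold (2.35 to 3.01) lower. Total-read scaling raised every diet ratio at day 13 by 0.82 on the log2 scale, and the H4 ratio then came to 0.664 and lost its call. Without his-37, the H4 ratio was 0.0484 at day 4 and 0.211 at day 13.

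Among single genes, his-41 was 6.83-fold lower on PY79 at day 4 (95% interval 5.82 to 8.07) and 17.0-fold lower at day 13 (14.2 to 20.4). his-60 ran the other way over time, 18.8-fold lower at day 4 (10.97 to 35.5) and 4.04-fold lower at day 13 (3.25 to 5.08). The other well-counted genes were lower by similar amounts at both ages. his-35 was 4.95-fold lower at day 4 and 3.83-fold at day 13, his-59 3.80-fold and 3.85-fold, his-48 3.62-fold and 3.31-fold, his-61 3.18-fold and 3.52-fold, and his-62 3.06-fold and 2.40-fold. Without his-41, the H2B sum was 3.10-fold lower at day 4 (2.62 to 3.70) and 2.64-fold lower at day 13 (2.35 to 2.97).

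The genes with few reads on PY79 give wider limits. his-32 was 14.6-fold lower at day 4 (95% interval 4.92 to 71.2, from 3 reads) and 6.99-fold lower at day 13 (3.94 to 13.7). his-63 was 9.81-fold lower at day 4 (1.68 to 395, from 1 read) and 8.55-fold lower at day 13 (3.85 to 23.6). For both genes the interval stayed on 1 side of 1 in spite of the low counts. Against the floor of 3 reads in the PY79 library, his-64 was at least 4.77-fold lower at day 4, his-3 at least 2.45-fold and his-31 at least 2.11-fold. At day 13, his-64 was 6.24-fold lower, his-3 9.38-fold, his-1 7.45-fold, his-31 5.93-fold (1.54 to 50.5, from 2 reads) and his-40 3.35-fold. his-4, his-2 and his-6, with 0 reads on PY79 at day 13, were at least 7.26-fold, 6.71-fold and 3.40-fold lower. The genes called lower at day 13 but not at day 4 were thus his-1, his-2, his-4, his-6 and his-40, of which his-40 was 1.86-fold lower at day 4 with an interval that held 1 (0.934 to 4.22).

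The exceptions were his-37 and his-8. For his-37 the ratio of PY79 to OP50 was 0.791 at day 4 (95% interval 0.644 to 0.965) and 0.984 at day 13 (0.820 to 1.17), and at day 13 it turned to 1.73 when libraries were scaled by their total reads and to 1.02 when all transcripts of a gene were summed. his-8 had 0 reads on PY79 and at most 11 on OP50, and no difference was detectable at this depth.

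**Figure D3:**
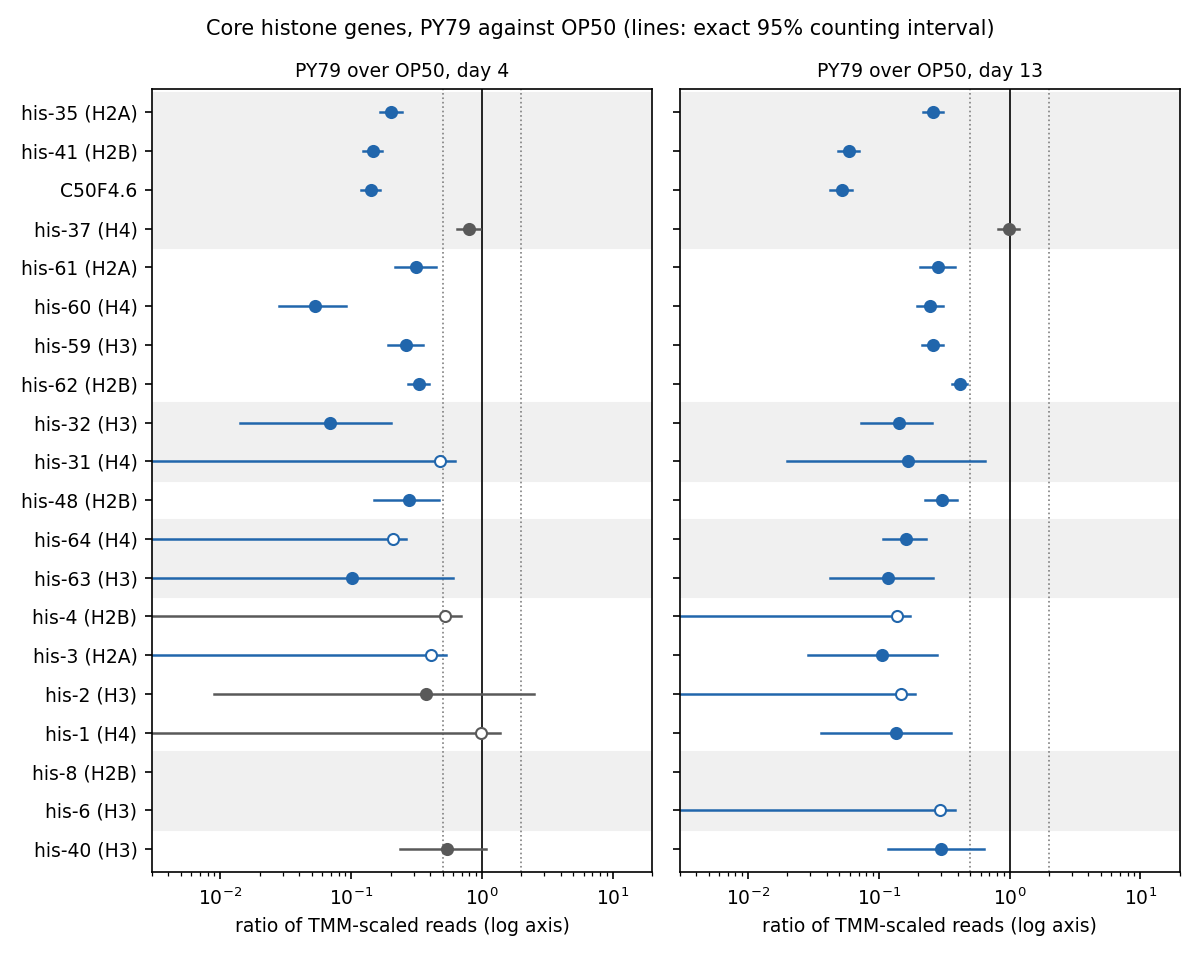
The ratio of TMM-scaled reads on PY79 over OP50 is drawn for each tested core histone gene on a log axis, at day 4 on the left and day 13 on the right; lines are exact 95% counting intervals, dotted lines mark 2-fold, blue marks a gene called lower, grey a gene not called and open points a ratio against the floor of 3 reads. In total 13 genes are blue at day 4 and 18 at day 13, and his-37 lies near 1 on both days.

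A model that adds the effects of diet and of age and is fitted to the 4 libraries leaves 1 residual degree of freedom. The quasi-likelihood test of edgeR then measures each effect against the departure from additivity, pooled over genes, not against biological replicates. The weight of the pooled value, its prior degrees of freedom, was infinite with TMM, so a gene's own departure did not count. With total-read scaling it was 4.83, and the pooling was partial. With Benjamini-Hochberg adjustment over all genes tested, 17 of the 20 members fell on PY79, beside 17.0% of all genes, and 0 rose, beside 14.8%. Since 11 of the 20 did not reach 10 reads in every PY79 library, and all of these but his-64 and his-32 passed only through OP50, this count too describes the genes that passed. Of the 9 with at least 10 reads in every library, 8 fell. In a fit of only the genes with that many reads, 1135 of 4741 genes fell. No member rose at an unadjusted p below 0.05 or with DESeq2 either. By adjusted p, C50F4.6 and the overlapping his-41 came first. Examples with reads in every library are his-41 (log2 change -3.43, adjusted p = 1.34e-06 in edgeR), his-60 (-3.03, adjusted p = 7.24e-05 in edgeR) and his-32 (-3.21, adjusted p = 7.31e-05 in edgeR). For his-4 and his-6, with 0 reads on PY79, the fitted change has no meaning as a fold. his-35 fell by 2.12 on the log2 scale (adjusted p = 0.00194 in edgeR), and the smallest fall in log2 change that passed was that of his-62 (-1.43, adjusted p = 0.0361 in edgeR). his-40, his-8 and his-37 did not pass, and without C50F4.6 the count is 16 of 19. When libraries were scaled by their total reads, 6 members fell, his-41, C50F4.6, his-32, his-63, his-4 and his-3. Over all 9032 genes 484 fell with that scaling, against 1538 with TMM. With DESeq2 in place of edgeR 13 members fell, beside 1276 genes in all.

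With age, a smaller set of core histone genes was higher at day 13 than at day 4. On OP50, 9 of the 20 tested members were higher, beside 14.6% of all tested genes, 0 were lower, beside 18.9%, and 11 were called neither way. With at least 10 reads in every library, 2 of 9 were higher on OP50, or 2 of 8 without C50F4.6, with no share over all such genes to set beside them. On PY79, 4 of the 20 were higher, beside 6.31% of all tested genes, 0 were lower, beside 7.97%, and 16 were called neither way. The median log2 ratio of the members was 0.62 on PY79, beside -0.10 over all tested genes, and 0.89 on OP50, beside 0.02. The 3 tested members with 0 reads in both PY79 libraries entered the PY79 value as 0. With genes that had 0 reads set at the floor, the median log2 ratio of the members was 0.32 on PY79 and 0.89 on OP50. Among the 9 members with at least 10 reads in every library it was 0.37 on PY79, beside -0.18 over all such genes, and 0.53 on OP50, beside 0.07. The age and diet comparisons use the same 4 libraries and are not independent of each other.

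The genes higher at day 13 on both diets were his-64, his-48 and his-59. his-64 was at least 9.54-fold higher on PY79 and 12.5-fold higher on OP50 (95% interval 9.75 to 16.2). his-48 was 3.82-fold higher on PY79 (2.11 to 7.42) and 3.49-fold higher on OP50 (3.02 to 4.05). his-59 was 2.50-fold higher on PY79 (1.76 to 3.61) and 2.54-fold higher on OP50 (2.34 to 2.76). his-60 was 6.18-fold higher on PY79 (3.43 to 12.1), against a ratio of 1.32 on OP50 (1.22 to 1.43), and this difference between the diets was not tested.

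On OP50 the 4 genes on the cosmid T10C6 were all higher at day 13: his-1 by 8.97-fold (95% interval 5.20 to 16.6), his-2 by 6.996-fold (3.85 to 13.8), his-3 by 4.71-fold (3.24 to 6.999) and his-4 by 3.52-fold (2.26 to 5.62). his-63, which lies beside his-64 on F22B3, was 4.83-fold higher on OP50 (3.50 to 6.78), with a ratio of 5.54 on PY79 (0.672 to 255, from 6 reads and 1 read), and his-6 was 3.84-fold higher on OP50 (1.96 to 8.09). On PY79 the T10C6 genes together had 8 reads at day 13 and 1 at day 4, a ratio of 7.38 whose interval (0.990 to 328) held 1, so that no difference was detectable at this depth.

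None of the genes on C50F4 was called between the ages on either diet. his-35 had a ratio of day 13 to day 4 of 1.17 on PY79 (95% interval 0.903 to 1.52) and 0.906 on OP50 (0.853 to 0.961), and his-37 one of 1.28 on PY79 (0.998 to 1.64) and 1.03 on OP50 (0.919 to 1.15), the last turning to 0.827 with total-read scaling. his-41 had a ratio of 0.744 on PY79 (0.583 to 0.948) and 1.85 on OP50 (1.79 to 1.92). With total-read scaling the interval of his-41 on PY79 held 1 (0.684 to 1.11). These 3 genes summed to 71.98 CPM at day 13 and 70.01 CPM at day 4 on PY79, and to 481 CPM at day 13 and 322 CPM at day 4 on OP50. They held 39.8% of the members' reads without C50F4.6 in PY79 at day 13 and 59.8% in PY79 at day 4, against 55.3% in OP50 at day 13 and 61.6% in OP50 at day 4. The 4 genes on F55G1 (his-59, his-60, his-61 and his-62) held 48.2% and 34.8% in PY79 at day 13 and day 4, against 31.4% and 32.4% in OP50 at day 13 and day 4.

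Of the class sums, H3 was higher at day 13 on both diets, 2.29-fold on PY79 (95% interval 1.69 to 3.15) and 2.47-fold on OP50 (2.30 to 2.64), and on OP50 it came to 1.99-fold when libraries were scaled by their total reads. H4 was 2.04-fold higher on PY79 (1.65 to 2.53), with a ratio of 1.67 on OP50 (1.58 to 1.77). The H4 ratio on PY79 was 1.99, and no longer called, with at least 10 reads in every library, and 8.80 without his-37, the H4 gene on C50F4. The H2B ratio was 1.34 on PY79 (1.16 to 1.56) and 1.80 on OP50 (1.75 to 1.86), and the H2A ratio 1.22 on PY79 (0.976 to 1.52) and 1.04 on OP50 (0.984 to 1.09), none of them past 2-fold. Without his-35 the H2A ratio on OP50 was 1.64. All members without the C50F4 genes had a ratio of 2.31 on PY79 (1.999 to 2.69) and 1.94 on OP50 (1.88 to 2.01).

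**Figure D4:**
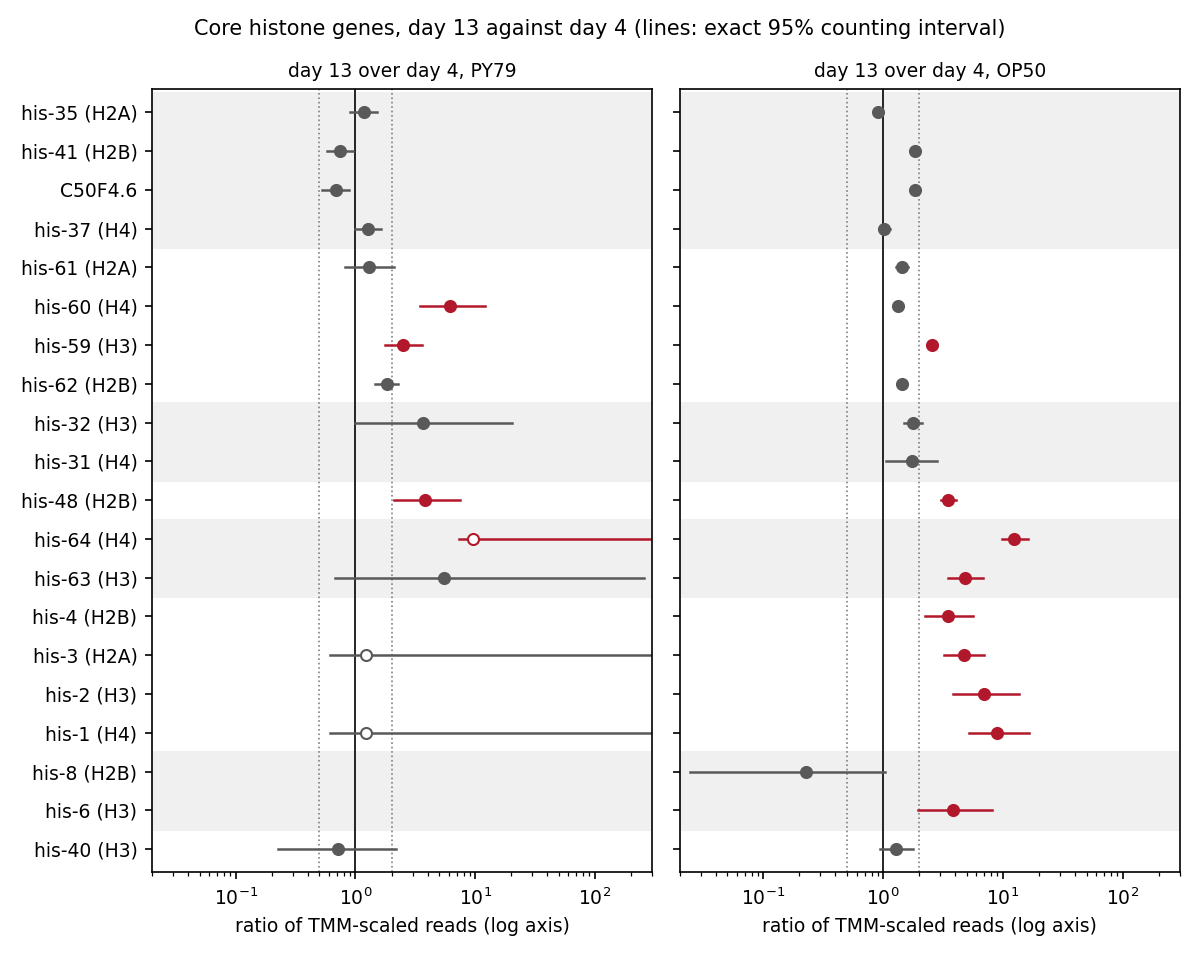
The ratio of TMM-scaled reads at day 13 over day 4 is drawn for each tested core histone gene on a log axis, on PY79 at left and on OP50 at right; lines are exact 95% counting intervals, dotted lines mark 2-fold, red marks a gene called higher, grey a gene not called and open points a ratio against the floor of 3 reads. On PY79 4 genes are red and on OP50 9, and genes with too few reads for a ratio have no point.

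In edgeR's additive model, 5 members rose with age, beside 3.52% of all genes, and 0 fell, beside 4.05%. No member fell at an unadjusted p below 0.05 or with DESeq2 either. The genes that rose were his-64 (log2 change 4.13, adjusted p = 1.90e-06 in edgeR), his-1 (3.27, adjusted p = 0.00129 in edgeR), his-3 (2.41, adjusted p = 0.0165 in edgeR), his-63 (2.29, adjusted p = 0.0210 in edgeR) and his-48 (1.86, adjusted p = 0.0369 in edgeR). his-59, called higher on both diets, did not pass (1.33, adjusted p = 0.181 in edgeR). The count depended on the method. DESeq2 passed his-64 and his-48, beside 158 genes in all that rose. When libraries were scaled by their total reads, edgeR passed 0 members, though 6 members had an unadjusted p below 0.05. With that scaling 0 of all 9032 genes rose and 1 fell, so this loss was not particular to the members.

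The tested members differ in gene structure, which the choice of members did not use. The C50F4 genes have introns and an annotated 3′ UTR, a feature that 5 of the 60 members share, and without C50F4.6 they held 19500 of 33936 member reads. The other 16 tested genes have neither. All genes called higher with age on either diet belong to these 16. Among other tested protein-coding genes with a transcript within the range of lengths of the tested members and no annotated 3′ UTR, which number 121, 23.97% were higher at day 13 on PY79 and 49.6% on OP50, with a median log2 ratio of 0.60 on PY79 and 0.98 on OP50. These values lie near those of all tested members together, a set that includes the C50F4 genes with a 3′ UTR. Medians of the 16 tested members without one were not taken apart, so like sets are not compared here. Of the 121, 31 are sperm genes by their symbol, and without them 14.4% were higher on PY79 and 34.4% on OP50. The median log2 ratio without them was 0.0 on PY79 and 0.33 on OP50, below the 0.62 and 0.89 of all 20 tested members. With genes that had 0 reads set at the floor, the PY79 median of the members was 0.32. In the diet comparisons 23.97% of the 121 were lower on PY79 at day 4 and 50.4% at day 13, with a median log2 ratio of -0.76 and -1.47. Without the sperm genes 23.3% were lower at day 4 and 37.8% at day 13, with a median of -0.61 and -1.02. The part of transcript length and of the missing 3′ UTR in the members' values was not tested.

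Among RNAs that normally carry no poly(A) tail, the kinds differed. All 12 tested snRNA genes, whose products act in splicing, were higher at day 13 on both diets and rose in edgeR, and the snRNA genes together had 545 CPM in PY79 at day 13 and 16.3 CPM in PY79 at day 4, against 279 CPM in OP50 at day 13 and 11.3 CPM in OP50 at day 4. In CPM their sum on PY79 thus stood above that on OP50 at each age, whereas the core histone sums stood below. Of the 12 genes, 4 were higher and 1 lower on PY79 at day 4, beside 25.4% and 23.4% of all tested genes, with a median log2 ratio of 0.0. At day 13, 5 were higher and 0 lower, beside 22.5% and 22.3%, with a median of 0.90. Of 12 tested snoRNA genes, 6 were higher and 1 lower at day 13 on PY79, and 5 were higher and 5 lower on OP50. Of 6 tested tRNA genes, 3 were higher and 0 lower on PY79, and 2 were higher and 2 lower on OP50. Of 4 tested rRNA genes 3 were higher on each diet, while the rRNA sum was 663 and 272 CPM in PY79 at day 13 and day 4, against 425 and 460 CPM in OP50 at day 13 and day 4. On OP50 the snoRNA and tRNA genes thus had as many lower as higher genes. Over all tested genes, 6.31% were higher and 7.97% lower at day 13 on PY79, and 14.6% and 18.9% on OP50. Only 1 snoRNA gene and 1 tRNA gene had at least 10 reads in every library. On OP50, 2 snoRNA and 3 tRNA ratios were taken against the floor. The part of such RNA in the rise of single histone genes with age was not tested.

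Histone variants and linker histones, whose genes are expressed outside DNA replication as well, were lower on PY79 too. Of 16 listed genes 14 were tested, and 12 were lower on PY79 at day 4 and 12 at day 13, beside 23.4% and 22.3% of all tested genes. In edgeR 11 fell on PY79 and 1 rose, beside 17.0% and 14.8% of all genes. The gene that rose, hpo-9, stands on the list although it is not known as a histone gene. his-72, an H3.3 gene, had 543 and 502 reads in PY79 at day 13 and day 4, against 17326 and 13418 in OP50 at day 13 and day 4, and fell by 2.79 on the log2 scale. htz-1, the H2A.Z gene, had 474 and 450 reads in PY79 at day 13 and day 4, against 7925 and 7088 in OP50 at day 13 and day 4, and fell by 1.95. The linker histone gene hil-4 had 2623 and 2783 reads in PY79 at day 13 and day 4, against 25105 and 19254 in OP50 at day 13 and day 4, and did not pass (log2 change -0.95, adjusted p = 0.168 in edgeR). With age 3 linker histone genes rose in edgeR (hil-2, hil-3 and hil-5). In the ratios of day 13 to day 4, 6 of the 14 were higher on PY79 and 7 on OP50, beside 6.31% and 14.6% of all tested genes. On either diet 0 were lower. The median log2 ratio was 0.43 on PY79 and 1.05 on OP50, beside 0.62 and 0.89 for the core histone members. With genes that had 0 reads set at the floor, the medians on PY79 were 0.43 and 0.32.

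Genes that handle histones or copy DNA moved in both directions. Of 9 genes for histone handling, 2 rose on PY79 (rba-1 and chaf-1, of chromatin assembly factor 1) and 1 fell (unc-85, an Asf1 histone chaperone) in edgeR, beside 14.8% and 17.0% of all genes. cdl-1, the stem-loop binding protein gene, had 78 and 79 reads in PY79 at day 13 and day 4, against 474 and 351 in OP50 at day 13 and day 4, and did not pass for diet (log2 change -0.30, adjusted p = 0.731 in edgeR). Of 19 genes for DNA replication, 4 rose on PY79 (rnr-2, pri-1, orc-2 and mcm-5) and 4 fell (cdc-6, rnr-1, pri-2 and orc-1), shares near those of all genes (14.8% and 17.0%). In the ratios of PY79 to OP50, 9 were higher and 5 lower at day 4, beside 25.4% and 23.4% of all tested genes, with a median log2 ratio of 0.88. At day 13, 5 were higher and 4 lower, beside 22.5% and 22.3%, with a median of 0.16. rnr-1, the large subunit of ribonucleotide reductase, had 44 and 80 reads in PY79 at day 13 and day 4, against 2814 and 7194 in OP50 at day 13 and day 4. It fell by 4.17 on the log2 scale, whereas rnr-2, the small subunit, rose by 1.48 (adjusted p = 0.0431 in edgeR).

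Markers of germ cells, where adult worms still copy DNA, were mixed. The 12 germ line and oocyte markers summed to 415 and 541 CPM in PY79 at day 13 and day 4, against 901 and 941 CPM in OP50 at day 13 and day 4. The sum and the median went opposite ways, since the median log2 ratio of PY79 to OP50 was 0.45 at day 4, with 2 markers higher and 2 lower, and 0.73 at day 13, with 3 higher and 4 lower. In edgeR 2 of them fell on PY79, glh-1 and pgl-3, which encode P granule proteins of the germ line. With age 1 of them fell, egg-1. All 8 tested sperm markers were higher at day 13 on OP50 and 7 on PY79, and their sum was 228 and 25.2 CPM in PY79 at day 13 and day 4, against 573 and 32.8 CPM in OP50 at day 13 and day 4. In edgeR 7 sperm markers rose with age and 2 fell on PY79. The part of germ cells and sperm in the members' values was not tested. The summed markers of intestine, body muscle and hypodermis were lower at day 13 on each diet, and their part was not tested either. The intestinal markers summed to 3085 and 17071 CPM in PY79 at day 13 and day 4, against 4269 and 21298 CPM in OP50 at day 13 and day 4. Those of body muscle summed to 83.4 and 222 CPM in PY79 at day 13 and day 4, against 98.0 and 392 CPM in OP50 at day 13 and day 4. Those of the hypodermis summed to 222 and 1922 CPM in PY79 at day 13 and day 4, against 473 and 1249 CPM in OP50 at day 13 and day 4. The neuronal markers did not share this direction, with 17.4 and 16.3 CPM in PY79 at day 13 and day 4, against 13.1 and 8.18 CPM in OP50 at day 13 and day 4, and of the embryonic markers 1 gene was tested.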

How the data were processed

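Whole-worm poly(A) RNA of 4 groups was measured by 3SEQ. The authors deposited raw read counts per transcript, and their processing notes list Bowtie 0.12.7. Not given in the sources used here are the genome build, the annotation, the counting tool and whether strand was used. Of 24775 transcript entries, 2 name no gene and hold 0 reads. One transcript per gene was kept, as described above, and 16760 of 17096 genes matched the Ensembl annotation of WBcel235, while member symbols came from RefSeq. Classes follow coding length, since no protein sequence or product name was used. Libraries were scaled by TMM in edgeR 4.0.16 (R 4.3.3), and genes with 10 reads in a library were tested. Ratios carry exact Clopper-Pearson intervals conditional on the summed reads. DESeq2 1.42.0, 2 other scalings, other filters, a 1.5-fold threshold and summed transcripts were alternatives, and the model code was tested on simulated data. Log2 ratios used a prior count of 1. Members and gene lists were chosen with earlier results of these data known. Every member with at least 100 reads in all, called in 2 comparisons or passing edgeR was given with its reads, and other genes by list.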

Additional observations from a re-analysis of the deposited data

Results flagged for a closer look

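The point ratios of his-41 with age lay on opposite sides of 1 on the 2 diets. Its ratio of day 13 to day 4 was 0.744 on PY79 and 1.85 on OP50, and both 95% intervals excluded 1. C50F4.6, whose reads overlap those of his-41, gave 0.681 on PY79 and 1.86 on OP50 and is no second measurement. The difference between the diets was not tested, since a model with that term leaves no residual degree of freedom. With total-read scaling his-41 gave 0.873 on PY79 (0.684 to 1.11), an interval that holds 1, and 1.49 on OP50 (1.44 to 1.55).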

How the results depend on the processing

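With 1 library a group, leaving out a library ends every comparison and was not run. No paired analysis was possible because each group has 1 library and the labels carry no replicate number. Relative to TMM, scaling by total reads moved the log2 ratio of every gene by 0.23 for age on PY79, -0.31 for age on OP50, 0.28 for the day 4 diet ratio and 0.82 for the day 13 diet ratio. Size factors from DESeq2 moved them by 0.07, 0.08, -0.15 and -0.16 in the same order. With total-read scaling 1 member, his-8, was lower with age on OP50, the H3 ratio for age on OP50 was 1.99, the H4 ratio for diet at day 13 was 0.664, 12 members were lower on PY79 at each age, and in edgeR 0 members rose with age and 6 fell on PY79. With at least 10 reads in every library, which leaves 9 members, 2 were higher with age on OP50. On PY79, 8 were lower at day 4 and 8 at day 13, again with no share over all such genes. The H4 ratio for age on PY79 was 1.99. In edgeR with that filter 1 member rose with age and 8 fell on PY79, beside 92 and 1135 of 4741 genes. DESeq2 in place of edgeR passed 2 for age. A 1.5-fold threshold called the age ratios on OP50 of H2B (1.80), H4 (1.67) and all members (1.72). Leaving out the C50F4 genes, a choice made after seeing the data, gave 2.02 for H4 and 1.64 for H2A with age on OP50, and 8.80 for H4 and 2.31 for all members with age on PY79. Of the other values, 132 ratios of class sums had the same call, and 63 counts stayed within 1.5 times, 48 of them equal. No called value turned direction, whereas the uncalled H2A ratio with age on OP50 did. Low depth on PY79, where 11 members at day 13 and 9 at day 4 reached 10 reads, limits what could be seen there.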
